A study of Canis lupus familiaris with 6 samples.

Results

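Heat shock chaperones of the cytosol and the mitochondria, together with the transcription factor HSF1, were followed in CMM10 cells, a line from canine malignant melanoma, grown with low oxygen (hypoxia) or at ordinary oxygen (normoxia). The members were chosen by name, with earlier results of these data known: HSPH1, HSPA8, HSPA4, HSP90AA1, HSP90AB1, DNAJB1, DNAJA1, HSPD1, HSPE1 and HSF1. Of these 10 names, 8 matched a gene model in each of the libraries, among 29822 models in all, and all 8 passed the filter on low counts, which left 15397 genes. HSPD1 and HSPE1, the mitochondrial chaperonin and its co-chaperonin, matched no name and were not analysed here. The files do name a combined model, HSPE1-MOB4, which is given further on. There were 3 hypoxia and 3 normoxia libraries of polyadenylated RNA, and the labels give no oxygen level, no time under hypoxia and no word on whether the replicates were separate cultures, so the p-values measure the spread between these libraries, which may be technical.

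Heat shock chaperones bind unfolded or partly folded proteins and help them to reach their native state. In the cytosol, J-domain proteins of the HSP40 class hand substrates to HSP70 and stimulate its ATPase, nucleotide exchange factors such as those of the HSP110 class release them, and HSP90 takes over late folding of kinases and hormone receptors. HSF1 is the main transcription factor that raises these genes after proteotoxic stress. Melanoma cells are known to depend on HSP90 for the stability of client kinases such as mutant BRAF.

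Under hypoxia, 7 of the 8 measured genes fell and 1, DNAJB1, rose. The falls lay between 0.25 and 0.66 on the log2 scale, largest for the HSP110 gene HSPH1 and the constitutive HSP70 gene HSPA8 and smallest for HSF1. DNAJB1, the J-domain co-chaperone of HSP70 in the classical heat shock response, rose by 25.0%. Each gene was tested in edgeR by the quasi-likelihood method, and adjusted p refers throughout to edgeR p-values with the Benjamini-Hochberg correction over all genes fitted. Of all 15397 genes, 24.4% were called lower and 24.5% higher at an adjusted p below 0.05. The median log2 change was -0.36 over the 8 genes and 0.00 over all genes tested. The values of the 2 conditions did not overlap in any of the 8 genes, a pattern that 55.3% of all genes tested shared.

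The libraries held 27272709 to 28804337 gene reads under hypoxia and 23196647 to 27012866 under normoxia, and each of the 8 genes had at least 1550 reads in each library, so counting error was small beside the differences described. Known hypoxia targets, taken as a check after their values were seen, followed the labels. Carbonic anhydrase CA9 stood at 408.8 ± 4.84 CPM (gene reads scaled to a common library size) under hypoxia and 29.9 ± 1.00 CPM under normoxia (SD, n = 3 each), and SLC2A1 and VEGFA were 5.63-fold and 3.49-fold higher. Of 8 melanocyte markers, 5 averaged at least 1 TPM (reads per transcript length, scaled to the same total in each library), and the sum of the 8 was 135.6 to 149.6 TPM under hypoxia and 129.2 to 146.3 TPM under normoxia. Most of that sum came from SOX10, DCT and MITF, at means of 63.3, 48.8 and 24.0 TPM over the 6 libraries. PMEL (1.75 TPM), MLANA (1.06 TPM) and S100B (0.876 TPM) were low and not called. SOX10 was higher under hypoxia (log2 fold change 0.40, edgeR adjusted p = 2.91e-06) and DCT lower (-0.23, edgeR adjusted p = 0.00141), MITF was expressed and not called, while TYR was listed at 0 and TYRP1 at or near 0 in all 6 libraries. Of 4 fibroblast markers, the collagen genes COL1A2 and COL1A1 were high, at means of 2421 and 133.4 TPM over the 6 libraries. DCN (2.60 TPM) and LUM (0.180 TPM) were low, so the fibroblast sum below was mostly COL1A2. The keratin gene KRT14 was also high. The summed TPM of 4 fibroblast markers was 2834 to 2928 under hypoxia and 2171 to 2302 under normoxia, and that of KRT14, the 1 keratinocyte marker matched, was 853.9 to 1016 under hypoxia and 190.2 to 195.9 under normoxia. Leukocyte markers summed to 0.359 to 1.03 TPM under hypoxia and 0.267 to 0.971 TPM under normoxia, with CD3E at 0. Endothelial markers summed to 1.63 to 2.12 TPM under hypoxia and 0.668 to 0.867 TPM under normoxia. That sum was mostly VWF (mean 1.18 TPM), which was higher under hypoxia (log2 fold change 1.44, edgeR adjusted p = 7.38e-12). CDH5 (mean 0.140 TPM) was not called, and PECAM1 was at or near 0. The part of these markers in the results below was not tested. In such bulk RNA, fewer cells of a type and less RNA per cell cannot be told apart.

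**Figure D1:**
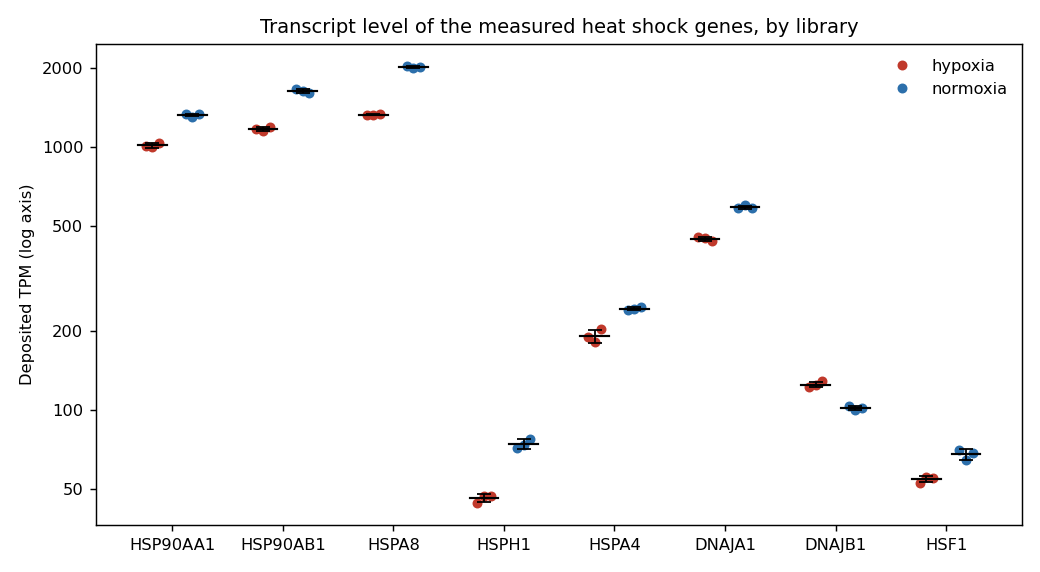
Deposited TPM (log axis) of the 8 measured genes, with hypoxia libraries in red left of normoxia libraries in blue. Points are single libraries, black lines the mean and bars the SD of 3 libraries. The conditions do not overlap for any gene, and DNAJB1 alone is higher under hypoxia.

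The cytosolic HSP90 genes both fell. HSP90AB1, the constitutive form, lies on chromosome 12 from 12660008 to 12664940 of the CanFam3.1 build. It had 1256, 1214 and 1257 CPM in hypoxia replicates 1, 2 and 3, against 1743, 1733 and 1631 CPM in normoxia replicates 1, 2 and 3. The lowest normoxia library thus stood well above the highest hypoxia library. The change was -0.45 ± 0.033 (log2 fold change ± SE, hypoxia over normoxia, edgeR adjusted p = 3.90e-13), so that HSP90AB1 fell by 27.0%. HSP90AA1, the form that heat shock induces, lies on chromosome 8 from 70092217 to 70095243. Its levels were 731.6, 711.3 and 742.7 CPM under hypoxia and 950.7, 934.7 and 915.7 CPM under normoxia. It fell by 0.36 on the log2 scale (SE 0.032, edgeR adjusted p = 4.26e-11), less than HSP90AB1 in size.

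HSPA8, the constitutive cytosolic HSP70 (also called HSC70), was the most abundant of the 8 genes and ranked 32 among all genes by mean CPM. Its gene lies on chromosome 5 from 11292262 to 11296797. Hypoxia libraries had 1328, 1308 and 1316 CPM, and normoxia libraries 1996, 1974 and 1920 CPM. Each hypoxia library was thus below each normoxia library, with little spread inside either condition. The change was -0.58 ± 0.032 (edgeR adjusted p = 2.49e-16), and HSPA8 fell by 32.9%. The stress-inducible HSP70 genes HSPA1A, HSPA1B and HSPA6 matched no name and were not analysed here.

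The HSP110 genes, whose proteins exchange the nucleotide of HSP70 and hold unfolded chains, fell to different extents. HSPH1, on chromosome 25 from 8972724 to 8997893, had 78.6, 83.8 and 84.9 CPM under hypoxia, against 126.0, 130.5 and 134.1 CPM under normoxia. Its change of -0.66 ± 0.043 (edgeR adjusted p = 2.46e-14) was the largest of the 8, and 2.60% of all genes tested had a lower value. HSPA4, on chromosome 11 from 21290621 to 21505122, had 489.4, 468.4 and 508.3 CPM under hypoxia and 605.1, 616.4 and 605.9 CPM under normoxia. Its fall was milder, at -0.32 ± 0.034 (edgeR adjusted p = 2.13e-09), and 15.0% of all genes tested had a lower value. HSPA4L, the third gene of this class and a member of a list described further on, fell by 0.49 on the log2 scale. The HSPA4 model spans 214502 bases and overlaps ZCCHC10, U4_130 and FSTL4 on the other strand, which averaged 233.8, 0 and 12.7 reads per library against 14629 for HSPA4.

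The J-domain genes went in opposite directions. DNAJB1, on chromosome 20 from 48121379 to 48130060, had 81.4, 82.6 and 85.01 CPM in the hypoxia libraries and 68.4, 65.8 and 65.0 CPM in the normoxia libraries. It rose by 0.32 ± 0.046 on the log2 scale (edgeR adjusted p = 6.29e-07), and 78.3% of all genes tested had a lower value, so that this rise was modest among all genes. DNAJA1, a farnesylated HSP40 that is abundant in unstressed cells, lies on chromosome 11 from 50156089 to 50167536. It had 309.6, 301.2 and 294.5 CPM under hypoxia and 390.5, 400.9 and 376.6 CPM under normoxia. The change was -0.37 ± 0.035 (edgeR adjusted p = 1.41e-10), and the highest hypoxia value stayed below the lowest normoxia value. Only 28.4% to 30.2% of the exon reads of DNAJA1 mapped uniquely, so its level may hold reads of near-identical copies. With uniquely mapped gene reads alone its direction and call were the same.

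HSF1, the factor that drives the heat shock response, was expressed at a moderate level and fell least. Its gene lies on chromosome 13 from 37724759 to 37745252. It had 63.0, 63.0 and 61.5 CPM under hypoxia, against 75.9, 73.6 and 73.5 CPM under normoxia. The change was -0.25 ± 0.047 (edgeR adjusted p = 4.24e-05), the largest adjusted p of the 8 genes. The HSF1 model shares 3547 bases with DGAT1 on the other strand, and DGAT1 itself was lower under hypoxia (-0.20, edgeR adjusted p = 0.00896). The library kit does not mark strand, so reads of both genes cannot be told apart there. Of the other 7 genes, HSPA8, HSPA4 and HSP90AB1 also overlapped a gene model. HSPA8 holds a small nucleolar RNA gene with 0 reads, and HSP90AB1 shared 70 bases with SLC35B2.

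**Figure D2:**
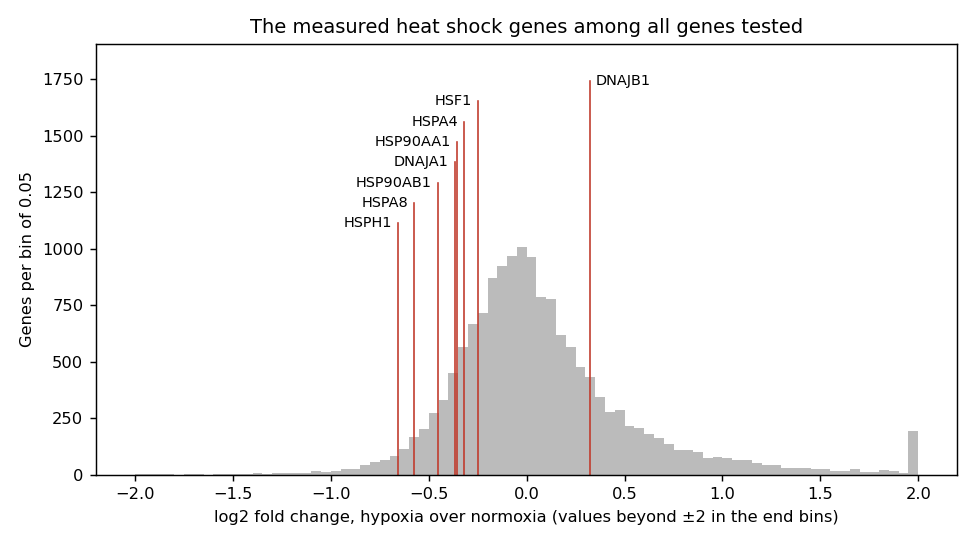
Histogram of log2 fold changes (hypoxia over normoxia, gene reads) of all 15397 genes tested, with the 8 measured genes as red lines. The lines of the 7 genes that fell lie between -0.66 and -0.25, and that of DNAJB1 at 0.32.

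Levels can be compared between genes per transcript length, from the deposited TPM. Under hypoxia the order was HSPA8 (1332 ± 5.75 TPM), HSP90AB1 (1175 ± 19.8), HSP90AA1 (1018 ± 22.05), DNAJA1 (448.6 ± 7.77), HSPA4 (191.4 ± 10.8), DNAJB1 (125.0 ± 3.20), HSF1 (54.5 ± 1.43) and HSPH1 (46.1 ± 1.63, TPM, SD, n = 3 each). No neighbours in that order overlapped in their range over the 3 libraries. Under normoxia the order was the same down to DNAJB1, and its last places were exchanged. HSPH1 had 44.2, 46.8 and 47.2 TPM under hypoxia, and 71.6, 73.5 and 77.8 TPM under normoxia. HSF1 had 52.9, 55.7 and 54.9 TPM under hypoxia, and 70.5, 64.4 and 68.5 TPM under normoxia. HSPH1 was thus below HSF1 in every hypoxia library and above it in every normoxia library. Summed, the 8 genes made up 0.437%, 0.435% and 0.445% of all TPM under hypoxia, against 0.613%, 0.604% and 0.607% under normoxia. HSPA8 and the HSP90 genes hold most of that sum, and the level of DNAJA1 rests largely on reads that did not map uniquely.

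Ratios within a library do not depend on how libraries are scaled. They are ratios of reads, not corrected for transcript length, so they compare conditions and not the amounts of the paired transcripts. Only 28.4% to 30.2% of the exon reads of DNAJA1 mapped uniquely. The ratio of DNAJB1 to DNAJA1 exon reads was 0.261, 0.270 and 0.284 under hypoxia and 0.172, 0.162 and 0.168 under normoxia. Its log2 difference was 0.70, and the conditions did not overlap (two-sided exact permutation p = 0.1, the smallest that 3 against 3 libraries can give, and 0.15 after Benjamini-Hochberg adjustment over 3 ratios). HSP90AA1 over HSP90AB1 was 0.580, 0.587 and 0.591 under hypoxia and 0.544, 0.541 and 0.561 under normoxia. This shift toward the inducible form was small, at 0.095 on the log2 scale, though again without overlap (two-sided exact permutation p = 0.1, adjusted 0.15). The ratio of HSPH1 to HSPA8 overlapped between conditions, at 0.0541 to 0.0572 under hypoxia and 0.0569 to 0.0621 under normoxia (log2 difference -0.083, two-sided exact permutation p = 0.3, adjusted 0.3). At this number of libraries, none of the 3 ratios could pass a threshold of 0.05.

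**Figure D3:**
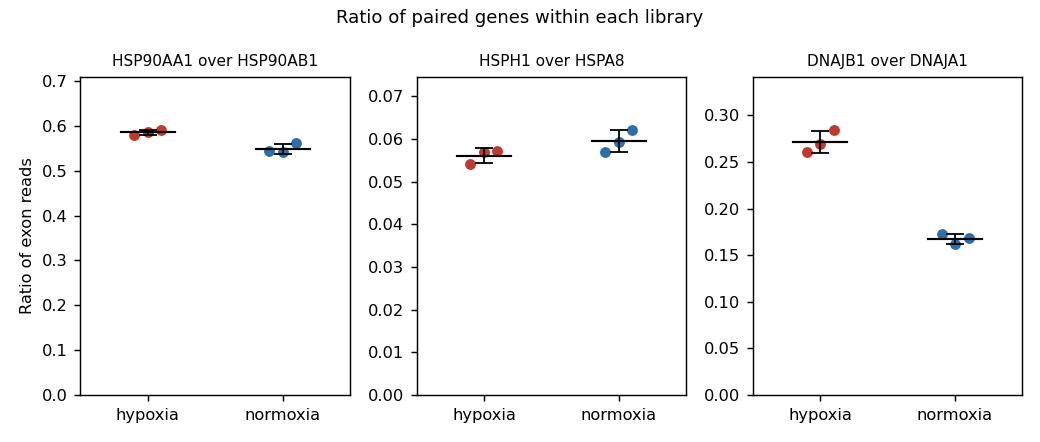
Ratio of exon reads of paired genes within each library (axes start at 0, no correction for transcript length), hypoxia in red left of normoxia in blue. Lines are means and bars SD of 3 libraries. DNAJB1 over DNAJA1 separates the conditions most, from 0.261 to 0.284 under hypoxia and 0.162 to 0.172 under normoxia.

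The deposited counts split gene reads into exon and intron reads, and introns hold reads of RNA not yet spliced as well as other signal inside the gene. From exon reads alone, 7 of the 8 genes fell and DNAJB1 rose, as from gene reads, where 23.8% of 13458 genes tested were called lower and 24.4% higher by edgeR. The exon values lay between -0.65 for HSPH1 and -0.28 for HSF1, with DNAJB1 at 0.33. From intron reads, fitted on their own over 13858 genes, 3 of the 8 were lower and 0 higher, against 15.7% lower and 18.7% higher of all genes tested. Without adjustment, 5 were lower and 0 higher at p below 0.05 in edgeR. The share of all genes at that unadjusted threshold is not given here, so this count has no background beside it. DESeq2 called 3 of the 8 lower and 0 higher, beside 1816 lower and 2244 higher of all 13858 genes.

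HSPH1 had 239, 301 and 301 intron reads under hypoxia and 395, 424 and 411 under normoxia. Its intron change was -0.62 ± 0.10 (edgeR adjusted p = 1.49e-06), close in size to its exon change. HSPA4 had the most intron reads, 3495, 3455 and 3270 under hypoxia and 4031, 4225 and 3697 under normoxia, and an intron change of -0.30 ± 0.047 (edgeR adjusted p = 3.40e-07). The intron reads of HSPA8 numbered 859, 777 and 846 under hypoxia and 1131, 968 and 905 under normoxia. Scaled for depth, they gave a change of -0.35 ± 0.072 (edgeR adjusted p = 8.38e-05), against -0.57 from its exon reads. Each hypoxia value of HSPA8 was below each normoxia value in reads, before scaling.

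The other 5 genes did not pass from intron reads. HSP90AB1 (-0.28 ± 0.12), DNAJA1 (-0.21 ± 0.099), HSF1 (-0.10 ± 0.095) and HSP90AA1 (-0.08 ± 0.26) had negative values, and DNAJB1 a positive one (0.33 ± 0.17). Their edgeR adjusted p ran from 0.0725 to 0.855. Intron reads per library numbered 207 to 329 for HSP90AB1, 331 to 408 for DNAJA1, 359 to 469 for HSF1, 122 to 229 for HSP90AA1 and 83 to 133 for DNAJB1. The value of HSP90AB1 rested on single libraries. It was -0.15 without hypoxia replicate 1 (edgeR adjusted p = 0.418), -0.43 without hypoxia replicate 3 (edgeR adjusted p = 0.00771) and -0.36 without normoxia replicate 3 (edgeR adjusted p = 0.0332), and between -0.26 and -0.21 without any 1 of the other libraries, where it did not pass.

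The share of a gene's reads that fell in introns was 25.4% ± 1.06 under hypoxia and 25.2% ± 0.35 under normoxia for HSPA4, and 12.3% ± 1.39 under hypoxia and 12.2% ± 0.60 under normoxia for HSPH1 (SD, n = 3 each). For HSPA8 it was 2.29%, 2.13% and 2.43% under hypoxia, and 2.14%, 1.78% and 1.98% under normoxia. The conditions overlapped here, with hypoxia replicate 2 just below normoxia replicate 1 (two-sided exact permutation p = 0.2). DNAJA1 was the gene whose intron share did not overlap, at 4.01%, 4.08% and 4.25% under hypoxia and 3.94%, 3.34% and 3.90% under normoxia (two-sided exact permutation p = 0.1, adjusted 0.8 over the 8 genes). For the other 7 genes the two-sided exact permutation p was 0.2 to 1. For all genes together, the intron share was 24.6% ± 0.67 in hypoxia libraries and 24.2% ± 0.77 in normoxia libraries (SD, n = 3 each).

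**Figure D4:**
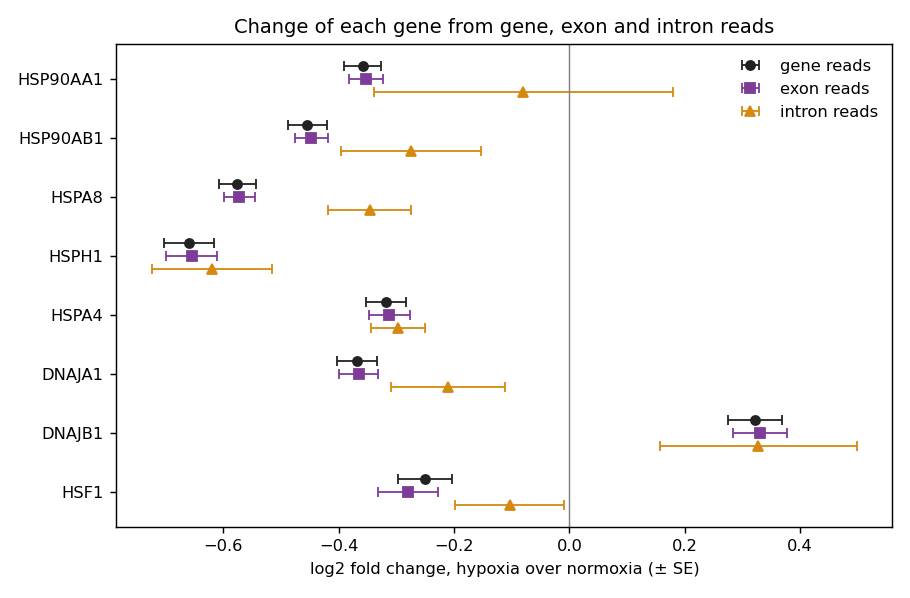
Log2 fold change ± SE (hypoxia over normoxia) of each gene from gene reads (black circles), exon reads (purple squares) and intron reads (orange triangles). Gene and exon values nearly coincide, and intron values have wider errors, widest for HSP90AA1 (0.26).

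The rest of the chaperone network was taken as 8 lists of other genes, 92 in all, of which 77 were tested, 11 matched no name and 4 were below the count filter. Of the 77, 47 fell and 13 rose under hypoxia, with a median log2 change of -0.20 against 0.00 over all genes tested. Falls were thus more frequent than the 24.4% called lower among all genes, and rises less frequent than the 24.5% called higher, though this comparison carries no test. The lists were chosen with earlier results of these data known, so these counts are not independent of that choice. Of the 77, 35 overlap another gene model, 30 of them one on the opposite strand, whose reads this kit cannot tell apart, and 5 a model on the same strand only. Of the genes named below, HSPA12A, DNAJA4, DNAJB2, BAG5, CCT5, CCT3, HSPB1, DNLZ, TRAP1, LONP1 and HSF2 overlap models on the opposite strand only. STUB1, TCP1, CRYAB and DNAJB6 overlap models on both strands, and HSPBP1, CCT6A and HSPA9 models on the same strand only. Among these named genes, a partner had more reads than the gene itself, on average per library, for CCT3 (LMNA, 35449 against 6880), HSF2 (SERINC1, 5738 against 504.5), DNLZ (PMPCA, 3535 against 86.5), BAG5 (COA8, 3973 against 1319), DNAJB2 (ATG9A, 3169 against 1920), DNAJB6 (UBE3C, 2051 against 1473), CRYAB (PPP2R1B, 3376 against 971.5) and, by a small margin, STUB1 (JMJD8, 1605 against 1549). HSPBP1 shares 12773 bases with the coding gene TNNT1, which averaged 979.5 reads per library against 1178 for HSPBP1. The partners of CCT6A and HSPA9 were small nucleolar RNA genes with 0 to 0.167 reads.

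Co-chaperones of HSP90 fell in 12 of 14 cases and rose in 1, with a median of -0.22. FKBP4, an immunophilin that binds HSP90 in steroid receptor complexes, had 296.4, 284.9 and 294.4 CPM under hypoxia and 422.0, 433.2 and 409.2 CPM under normoxia (-0.53 ± 0.034). AHSA1, which stimulates the HSP90 ATPase, fell by 0.47 and STIP1, which links HSP70 to HSP90, by 0.28 on the log2 scale. AHSA1 and STIP1 were taken as examples after their values were seen. STUB1, a ubiquitin ligase that marks chaperone-bound proteins, was the 1 gene of this list that rose, at 62.5 ± 2.99 CPM under hypoxia and 53.0 ± 1.801 CPM under normoxia (0.24 ± 0.053).

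Of the 12 tested genes of the chaperonin TRiC, which folds actin and tubulin, and of prefoldin, which delivers to it, 10 fell and 1 rose (median -0.29). CCT5 had 386.6, 371.5 and 379.0 CPM under hypoxia, against 561.0, 551.8 and 545.6 CPM under normoxia (-0.54 ± 0.033). All 7 TRiC subunits tested were among those that fell, the others being CCT4 (-0.48), CCT3 (-0.37), CCT8 (-0.35), CCT2 (-0.32), TCP1 (-0.30) and CCT6A (-0.26). The prefoldin gene PFDN5 rose slightly, at 107.4, 105.3 and 99.3 CPM under hypoxia and 93.8, 97.4 and 91.7 CPM under normoxia (0.14 ± 0.044). That call was lost without hypoxia replicate 1 (0.12, edgeR adjusted p = 0.0609) and when reads were scaled by library size alone (0.075, edgeR adjusted p = 0.158). The list had 2 rises without normoxia replicate 2, with no count filter, with uniquely mapped reads and with the replicate number as a block.

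Among the other HSP70 family members, 1 of 7 fell and 2 rose (median 0.06). HSPA4L is the gene that fell, with 46.9, 48.0 and 53.4 CPM under hypoxia and 68.2, 68.7 and 71.2 CPM under normoxia. HSPA12A, a distant HSP70 relative, rose to 25.8 ± 0.998 CPM under hypoxia, against 19.2 ± 1.13 CPM under normoxia (0.43 ± 0.074). HSPA2, a close relative of HSPA8, did not pass, at 87.9 ± 2.37 CPM under hypoxia and 90.7 ± 1.39 CPM under normoxia. The other rise was HSPA12B, which was below the mean set for naming, at 0.916 ± 0.208 CPM under hypoxia and 0.438 ± 0.0334 CPM under normoxia, with 87.3% of its reads in introns. The list had 1 rise in place of 2 with DESeq2, with no count filter, with exon reads, or without any 1 of hypoxia replicates 1 and 2 and normoxia replicates 1, 2 and 3, and 0 with exon-exon reads.

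Of 12 tested genes on the list of other J-domain proteins, 7 fell and 3 rose (median -0.15), and 4 fell with exon-exon reads. The rises were DNAJB2 (0.62 ± 0.054), DNAJB5 (0.94 ± 0.29) and DNAJB12 (0.22 ± 0.076), which like DNAJB1 belong to the B class by name. DNAJB2, a neuronally enriched J protein, had 89.4, 88.4 and 81.3 CPM under hypoxia and 51.4, 58.0 and 59.5 CPM under normoxia, and its model overlaps ATG9A. DNAJB14 (-0.40 ± 0.097) and DNAJB6 (-0.15) of the same class fell, so the class did not move as a whole, and DNAJB4 did not pass (0.14). DNAJB5 was low, at 2.38, 1.90 and 1.81 CPM under hypoxia and 0.868, 0.909 and 1.43 CPM under normoxia, and was not called without hypoxia replicate 1 (0.80, edgeR adjusted p = 0.0516). DNAJB2, DNAJB12, DNAJB6, DNAJB4 and DNAJA4 were taken as examples after their values were seen, as were the chaperonin subunits other than CCT5 above. DNAJA4, from the class of DNAJA1, fell by 0.15 on the log2 scale.

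Nucleotide exchange factors and adaptors of HSP70 fell in 4 of 8 cases and rose in 1 (median -0.11). HSPBP1, which releases nucleotide from HSP70, had 36.4, 32.5 and 31.9 CPM under hypoxia against 55.6, 55.2 and 54.5 CPM under normoxia (-0.71 ± 0.059). BAG3, a stress-induced partner of HSP70 in selective autophagy that was named after its values were seen, fell by 0.56 on the log2 scale. BAG5 rose, with 54.8 ± 2.08 CPM under hypoxia and 43.5 ± 1.41 CPM under normoxia (0.33 ± 0.055). Without hypoxia replicate 2 the list had 2 rises, and with exon-exon reads, where BAG5 was not tested, 2 falls in place of 4.

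The genes listed by name as small heat shock proteins split into 2 rises and 2 falls among 6 tested (median -0.0012), with 1 fall from exon reads. Typical proteins of this class are ATP-independent holders of unfolded chains. HSPB1 (HSP27) was the most abundant and rose, with 589.8, 609.9 and 589.9 CPM under hypoxia and 362.1, 358.4 and 350.1 CPM under normoxia (0.74 ± 0.033, edgeR adjusted p = 1.17e-18). Its partner HSPB8, which works with BAG3, fell to 72.8 ± 5.11 CPM under hypoxia, against 96.9 ± 3.22 CPM under normoxia (-0.41 ± 0.049, with 48.6% of its reads in introns). The other rise was HSPB11 (0.38 ± 0.088, with 66.2% of its reads in introns), named after its value was seen. Its place on this list rests on its name alone, and so does the even split. CRYAB did not pass, and 84.7% of its reads lay in introns of a model that overlaps several other genes.

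In mitochondria, 9 of 14 chaperones and proteases fell and 2 rose (median -0.21). HSPA9, the mitochondrial HSP70 (mortalin), had 410.7, 402.4 and 423.6 CPM under hypoxia and 604.2, 602.9 and 588.3 CPM under normoxia (-0.54 ± 0.033), a fall near that of cytosolic HSPA8. It was named after its values were seen, as was TRAP1, the mitochondrial HSP90, which fell by 0.29 on the log2 scale. DNLZ, which keeps HSPA9 soluble, was low and had the largest fall of the list, at 2.84, 2.69 and 1.55 CPM under hypoxia and 3.81, 4.47 and 4.15 CPM under normoxia (-0.81 ± 0.20). LONP1, the Lon protease of the matrix, went the other way. It had 337.8, 329.4 and 309.4 CPM under hypoxia, against 126.3, 127.5 and 122.6 CPM under normoxia, a 2.59-fold rise (1.38 ± 0.038, edgeR adjusted p = 2.22e-24). The combined model HSPE1-MOB4 on chromosome 37 from 7035829 to 7062213, looked at only because HSPE1 was not matched, overlapped between conditions, at 117.9, 117.5 and 124.0 CPM under hypoxia and 118.6, 123.9 and 123.7 CPM under normoxia (-0.03 ± 0.040). It holds reads of MOB4 as well and is not a value of HSPE1.

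Of the 4 tested heat shock factors and regulators, 2 fell and 1 rose. HSF4 fell to 13.4 ± 0.935 CPM under hypoxia, against 17.5 ± 0.887 CPM under normoxia (-0.38 ± 0.090, with 42.0% of its reads in introns), and HSF2, named after its value was seen, fell by 0.36 on the log2 scale. With exon-exon reads 0 genes of this list fell. HSBP1, a small protein that binds HSF1 and holds it back, rose to 89.2 ± 2.54 CPM under hypoxia, against 74.7 ± 1.76 CPM under normoxia (0.26 ± 0.045).

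**Figure D5:**
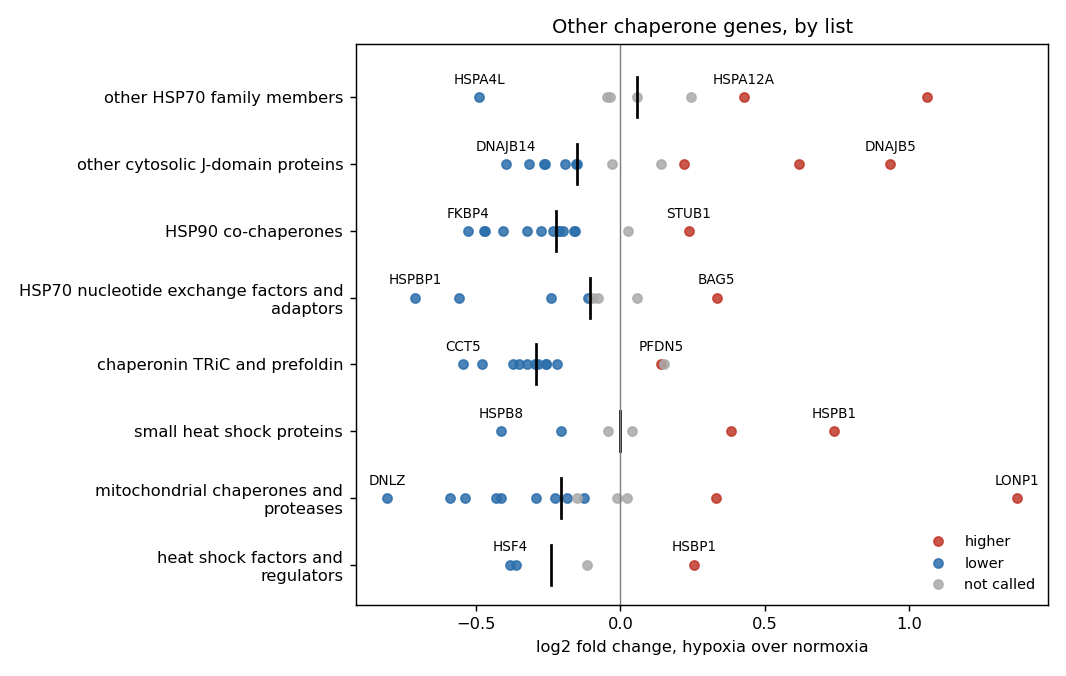
Log2 fold change (hypoxia over normoxia, gene reads) of the 77 tested genes in 8 chaperone lists. Red points were called higher, blue points lower and grey points were not called at an adjusted p of 0.05, and black lines are list medians, from -0.29 for TRiC and prefoldin to 0.06 for the other HSP70 family members.

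The genes most like HSPH1 across the 6 libraries, by Euclidean distance between log2 CPM values centred on each gene's mean, were WDYHV1 (0.061), TTLL12 (0.078), PDCD2L (0.080), NDUFAF7 (0.089) and NCDN (0.099), out of 9150 symbol-bearing genes that averaged 10 CPM or more. None of them is a chaperone of the lists used here. Their log2 fold changes were -0.66 to -0.62, beside -0.66 for HSPH1, so this distance mostly restates the size of the change. Of the other 7 measured genes HSPA8 was nearest to HSPH1, at a distance of 0.17, with 56 genes nearer, and DNAJB1 was farthest, at 1.21.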

How the data were processed

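Per the labels' protocols, polyadenylated RNA was made into NEBNext Ultra II libraries, which do not mark strand, and sequenced as pairs on an Illumina NextSeq. Groups and replicate numbers came from the sample titles. The genome build was CanFam3.1, per the submitters' processing notes, and no aligner or counter is named in these sources. Deposited counts, per the file headers, give reads for each gene model, as total and uniquely mapped gene, exon, exon-exon and intron reads. The deposited TPM values are scaled by the authors to the same sum in each library and served only to compare levels.

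Total gene reads were kept by filterByExpr, scaled by TMM and tested by edgeR's quasi-likelihood test (robust, no covariates, Benjamini-Hochberg over all genes tested, called below 0.05), and likewise intron and exon reads. SE were taken from the test's F statistic. Ratios and intron shares were tested over libraries by exact permutation, two-sided. Scripts were tested on simulated data. The members and lists were chosen with earlier results of these data known. The rule for naming took the called gene of each list with the largest rise and with the largest fall. It required a mean of at least 1 CPM. Other tested list genes, among them HSPA2, HSPA12B and CRYAB, were named outside this rule after their values were seen. The promoter motif search that was planned, and the ratio of HSPD1 to HSPE1, were not run, since no sequence was at hand and neither gene was matched. Replicates differed by more than sampling noise (chi-square per degree of freedom 4.12 to 12.7). Alternatives were other scalings, DESeq2, no filter, unique, exon or exon-exon reads, a replicate block and leaving out each library. The tools were edgeR 4.0.16, DESeq2 1.42.0 and limma 3.58.1 in R 4.3.3, with figures from matplotlib 3.10.9 in Python 3.11.15.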

Additional observations from a re-analysis of the deposited data

How the results depend on the processing

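From gene reads, all 8 measured genes kept their direction and call under all 14 alternatives, exon-exon reads (added after seeing the data) included. HSPH1 ranged from -0.73 to -0.59, HSPA8 from -0.64 to -0.56, HSF1 from -0.32 to -0.23 and DNAJB1 from 0.26 to 0.41 on the log2 scale. With library size as the only scaling, 38.8% of the calls were higher, against 50.1% with TMM, and from intron reads 35.1% against 54.4%. That scaling moved the median intron change of all genes to -0.11, gave 3571 lower genes, and called 5 of the 8 genes lower, adding HSP90AB1 (-0.38) and DNAJA1 (-0.31). Exon-exon reads, with 11288 genes tested, gave 2459 lower genes, and lost the calls of HSPA12A (0.42), DNAJB14 (-0.23) and HSF4 (-0.27). Intron changes near 0 turned sign: HSF1 with uniquely mapped reads (0.038), and HSP90AA1 when single libraries were left out (-0.28 to 0.22). The cause was not tested. Intron share differences ranged over left-out libraries from -0.34 to 0.97 percentage points for HSPH1, -0.40 to 0.66 for HSPA4 and -0.49 to 0.35 for DNAJB1. Leaving out single libraries gave 41 to 48 falls and 10 to 13 rises among the listed chaperone genes. Same-numbered libraries did not deviate together (correlations -0.084, 0.10 and -0.0012), so the numbers were not taken as pairs. With the replicate block, 3769 genes were higher and 3793 lower, and no call of the 8 genes changed. Depth was lowest for the intron reads of DNAJB1, at 83 to 133 per library.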
